A study of Tupaia belangeri with 2 samples.

Results

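The 5 genes described here, Notch ligands and genes of the cell cycle, were compared between dividing, precursor and neuronal cells of the tree shrew embryonic brain. They are the Notch ligands DLL3 and JAG1, the cyclin-dependent kinase inhibitor CDKN1C (p57), the G1 cyclin CCND1 and the S phase transcription factor E2F1. The members were chosen by name, with earlier results of these data known. Each matched 1 of the 23975 gene models, so that 5 of 18543 gene names are described. The models are evm.model.chr22.336 for DLL3, evm.model.chr10.1116 for JAG1, evm.model.chr18.685 for CDKN1C, evm.model.chr18.718 for CCND1 and evm.model.chr10.955 for E2F1. Single-cell RNA sequencing had been performed on 2 whole brains of Tupaia belangeri, 4 to 5 weeks after conception, with 1 library per embryo. Neither embryo was treated or genetically altered, and the labels give no strain and no sex. The comparisons are therefore between kinds of cell within the same 2 animals.

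In a developing brain, radial glia divide at the ventricle and give rise to intermediate precursors and to neurons. Cells that start to differentiate display Delta-like and Jagged ligands, which activate Notch receptors on their neighbours and, through RBPJ, raise HES and HEY repressors that keep those neighbours in the progenitor state. DLL3 is the divergent Delta-like ligand, known for acting on Notch within the cell that makes it, whereas JAG1 acts on neighbouring cells and is also a ligand of blood vessels. Cyclin D1 (CCND1) with CDK4 or CDK6 phosphorylates RB and so releases E2F1, which turns on genes of DNA synthesis. CDKN1C holds cyclin-dependent kinases inactive and is known for its rise at cell cycle exit.

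The unique molecular identifiers (UMIs), each of which marks 1 captured transcript, were counted in 8408 cells of embryo 1 and 9327 of embryo 2, with medians of 3539 and 3169 UMIs per cell. A further 833 and 358 barcodes had under 200 genes and were left out, and 18 barcode sequences occurred in both libraries. The cells fell into 32 clusters, of which 29 could be named from marker genes. All 5 genes and the related genes listed below were kept out of the clustering. Levels are given as UMIs per 1000000 UMIs of a class (CPM), as the mean ± SD of the embryos (n = 2). Fewer transcripts per cell and fewer expressing cells cannot be told apart in such sums. Stages from division to neurons were represented by 2826 dividing cell-like cells, 2599 radial glia-like cells, 276 neurogenic precursor-like cells and 5 neuron-like classes. The precursor-like class is 1 cluster, named from the 3 markers EOMES, NEUROG1 and BTG2 out of the 8 of 14 listed that were looked for, and was not separated from other cells at coarser clustering. It also carries the cortical excitatory neuron markers NEUROD6 and FEZF2, while most of the neuron-like cells it is set against below are of other kinds. The dividing cell-like class is mixed as well. Its largest cluster, 7, carries DLX1 and DLX2, and DBX1 is among the leading genes of cluster 26. A rise or fall below is a difference between such groups, in which stage and kind of cell cannot be told apart.

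**Figure D1:**
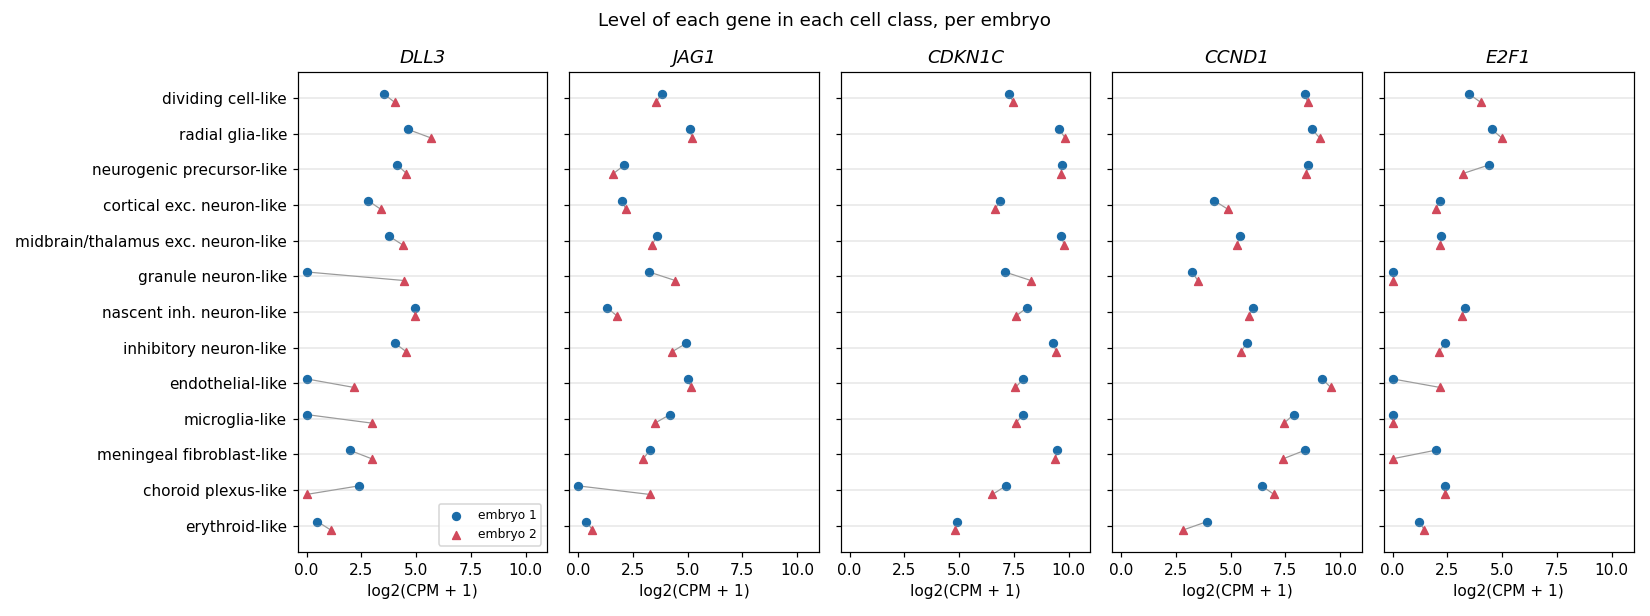
Level of each gene, as log2(CPM + 1) on the horizontal axis, in each of 13 cell classes, with circles for embryo 1 and triangles for embryo 2. CDKN1C was at 818 CPM in neurogenic precursor-like cells against 166 in dividing cell-like cells, while CCND1 had means of 60.3 CPM or less in the 5 neuron-like classes.

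CDKN1C was higher in precursor-like than in dividing cell-like cells. It was at 155 and 177 CPM in the dividing cell-like cells of embryos 1 and 2, and at 827 and 809 CPM in the precursor-like cells, so the embryos did not overlap. The log2 fold change was 2.29 ± 0.0945 (SE, edgeR quasi-likelihood test, adjusted p = 1.54e-52). At a fixed depth of 1000 UMIs per cell, a CDKN1C UMI was found in 8.57% and 9.13% of dividing cell-like cells and in 37.2% and 36.4% of precursor-like cells. The shares before thinning were 24.8% and 29.2% against 58.3% and 56.7%. Erythroid-like cells, which serve as a measure of free RNA, had 2.94% and 3.02% after thinning and 8.44% and 10.8% before, at a median depth of 10770 UMIs per cell against 3795 in the precursor-like class. Within the erythroid-like class, cluster 21 gave 76.2% of the CDKN1C UMIs from 20.5% of the cells. As 57.9% of the cells of cluster 21 were among the highest Scrublet doublet scores, the background may be overstated. It may also be understated, since haemoglobin genes took on average 72.3% and 64.7% of the UMIs of an erythroid-like cell in embryos 1 and 2. At a fixed depth this leaves fewer UMIs for other genes.

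CCND1, which is needed to enter the cycle, did not pass the same test. It was at 331 and 366 CPM in dividing cell-like cells and at 368 and 352 CPM in precursor-like cells, with a log2 fold change of 0.04 ± 0.11 (SE, edgeR, adjusted p = 0.876). E2F1, which was captured in far fewer cells, was at 10.1 and 15.2 CPM in dividing cell-like cells. In precursor-like cells it was at 20.1 and 8.23 CPM, from 12 and 4 UMIs, and the embryos overlapped (log2 fold change 0.23 ± 0.419, edgeR adjusted p = 0.784).

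Of the Notch ligands, JAG1 was called lower in the precursors and DLL3 was not called. DLL3 was at 16.7 and 22.6 CPM there, against 10.4 and 15.2 CPM in dividing cell-like cells, a difference of 0.60 ± 0.386 on the log2 scale that did not pass the test (edgeR, adjusted p = 0.312). JAG1 fell, from 13.4 and 10.6 CPM in dividing cell-like cells to 3.34 and 2.06 CPM in precursor-like cells. The last values rest on 3 UMIs in all, which is 0.229 times the level of dividing cell-like cells with a counting interval of 0.0468 to 0.679 (exact 95%). The edgeR test gave an adjusted p of 0.0144, and the call was lost with DESeq2 (adjusted p = 0.0789) and with 30 principal components (adjusted p = 0.312). Of the 5 genes, 1 rose and 1 fell between dividing and precursor-like cells, in a comparison that called 21.1% of all 9894 genes tested. The p-values rest on the spread that is left between 2 embryos once the embryo is taken as a block. This residual spread is estimated over all classes of the fit. The classes were drawn from other genes of the same cells, so the p-values do not test the classes themselves.

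**Figure D2:**
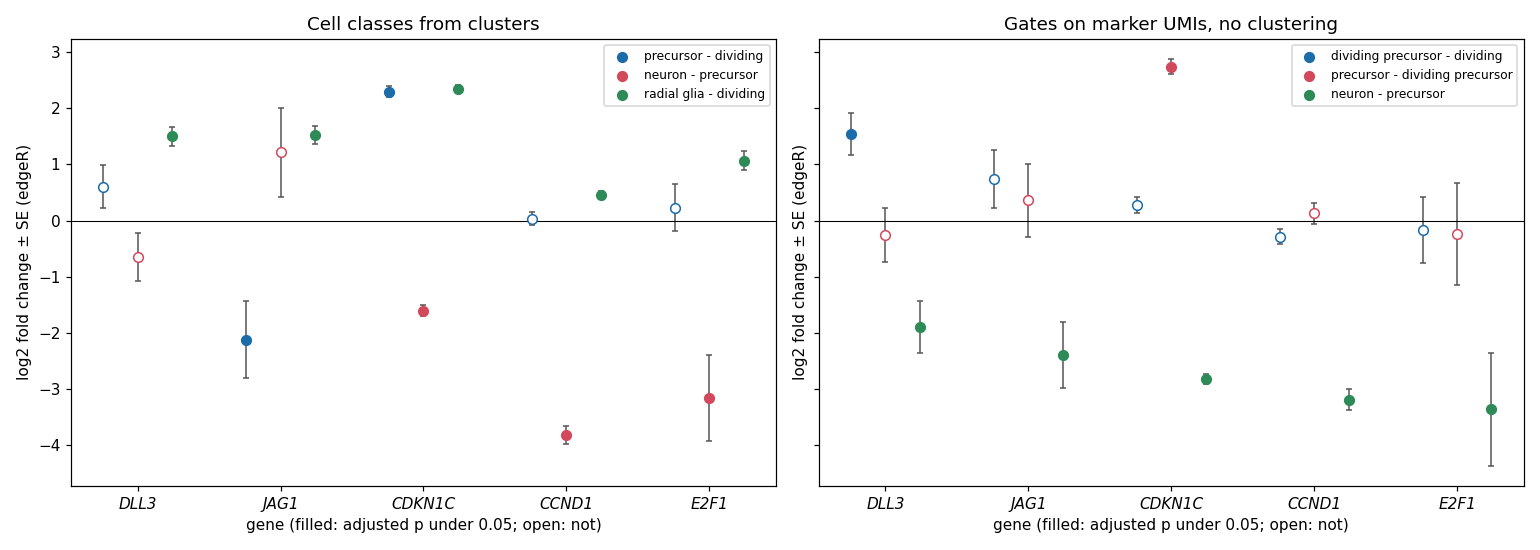
Log2 fold change with its SE (vertical axis) of each gene between cell classes (left) and between gates set from marker UMIs without clustering (right), with filled points for an adjusted p under 0.05 in edgeR. CDKN1C rose by 2.29 from dividing cell-like to precursor-like cells and by 2.74 from dividing precursors to precursors outside the dividing gate.

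CCND1, CDKN1C and E2F1 were lower in neuron-like than in precursor-like cells. CCND1 was at 18.1 and 28.3 CPM in cortical excitatory neuron-like cells, and its means in the other 4 neuron-like classes ran from 9.38 to 60.3 CPM. Set against precursor-like cells, the average over the neuron-like classes differed by a log2 fold change of -3.81 ± 0.164 (edgeR, adjusted p = 1.88e-49). CDKN1C differed by a smaller average (-1.60 ± 0.0913, adjusted p = 4.73e-36), with class means from 107 CPM in cortical excitatory neuron-like cells to 851 ± 54.7 CPM in midbrain or thalamus excitatory neuron-like cells. The embryos were at 827 and 809 CPM in the precursors. E2F1 fell by 3.16 on the log2 scale (± 0.76, adjusted p = 0.000649), to class means from 3.23 to 8.48 CPM in the 4 larger neuron-like classes. It had no UMI in the 49 granule neuron-like cells, and the fall was -1.92 (adjusted p = 0.00136) when that class was left out. DLL3 (-0.65 ± 0.421, adjusted p = 0.335) and JAG1 (1.21 ± 0.80, adjusted p = 0.347) did not pass the test. Thus 3 of 5 genes fell and none rose, where 19.5% of all genes were called.

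Set directly against dividing cell-like cells, the neuron-like mean was higher for CDKN1C (0.69 ± 0.0875, adjusted p = 2.85e-12) and lower for CCND1, E2F1 and JAG1. For CDKN1C this did not hold in every class. Cortical excitatory neuron-like cells were at 107 CPM, below the 166 CPM of dividing cell-like cells, and the other neuron-like classes had means from 222 to 851 CPM. CCND1 differed by -3.77 ± 0.0915 (edgeR, adjusted p = 3.65e-84), E2F1 by -2.92 ± 0.401 (adjusted p = 8.57e-11) and JAG1 by -0.91 ± 0.231 (adjusted p = 0.000379). DLL3 did not pass the test (-0.05 ± 0.258, adjusted p = 0.927). This comparison called 50.9% of all genes.

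Radial glia-like cells had the highest mean level of E2F1 of the 13 classes, and higher levels of all 5 genes than dividing cell-like cells in the test. The log2 fold changes were 2.34 ± 0.0691 for CDKN1C, 1.53 ± 0.164 for JAG1, 1.50 ± 0.164 for DLL3, 1.07 ± 0.171 for E2F1 and 0.46 ± 0.0669 for CCND1. The largest adjusted p among them was 6.51e-08 (edgeR, for E2F1), and 14.3% of all genes were called higher in this comparison. These 5 calls rest largely on 1 of the 3 radial glia-like clusters, cluster 4. Cluster 4 holds 39.9% of the radial glia-like cells but 89.6% of their CDKN1C UMIs, 77.9% of DLL3, 66.9% of E2F1, 65.5% of JAG1 and 55.9% of CCND1. In cluster 0, the largest radial glia-like cluster, CDKN1C was at 102 and 88.1 CPM, below the dividing cell-like class. Clusters 0 and 4 also carry MCM3 and MCM5, which are on the list of dividing cell markers. When only cells with at least 1000 genes were clustered, the radial glia-like class shrank to 463 cells, 4 of the 5 differences changed sign and the JAG1 call was lost (adjusted p = 0.931), with log2 fold changes of -1.43 for CDKN1C, -3.75 for DLL3, -1.14 for E2F1 and -0.52 for CCND1. With 30 principal components DLL3 was lower in radial glia-like cells (-0.71, adjusted p = 0.00145) and the E2F1 call was lost (adjusted p = 0.30). The CCND1 call was lost with DESeq2 (adjusted p = 0.321) and without the embryo as a block (adjusted p = 0.0882). The clusters are described one by one below, without tests, since those named were picked after their values were seen.

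Against radial glia-like cells, precursor-like cells were lower in JAG1 and CCND1. JAG1 was at 33.0 and 36.1 CPM in radial glia-like cells, and its 3 UMIs in precursor-like cells come to 0.080 times that level (exact 95% counting interval 0.0164 to 0.236, edgeR adjusted p = 3.57e-08). CCND1 was at 419 and 536 CPM in radial glia-like cells and differed by -0.42 ± 0.108 (adjusted p = 0.0022), a call that was lost with DESeq2 (adjusted p = 0.527) and without the embryo as a block (adjusted p = 0.211). CDKN1C differed by -0.05 ± 0.084 (adjusted p = 0.814), DLL3 by -0.89 ± 0.333 (adjusted p = 0.0572) and E2F1 by -0.83 ± 0.377 (adjusted p = 0.141). Thus 2 of 5 genes were called, among 13.6% of all genes. CDKN1C was higher in precursor-like cells when the highest doublet scores were left out before clustering (1.00 on the log2 scale, adjusted p = 8.61e-10) and with 30 principal components (1.20, adjusted p = 6e-19).

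**Figure D3:**
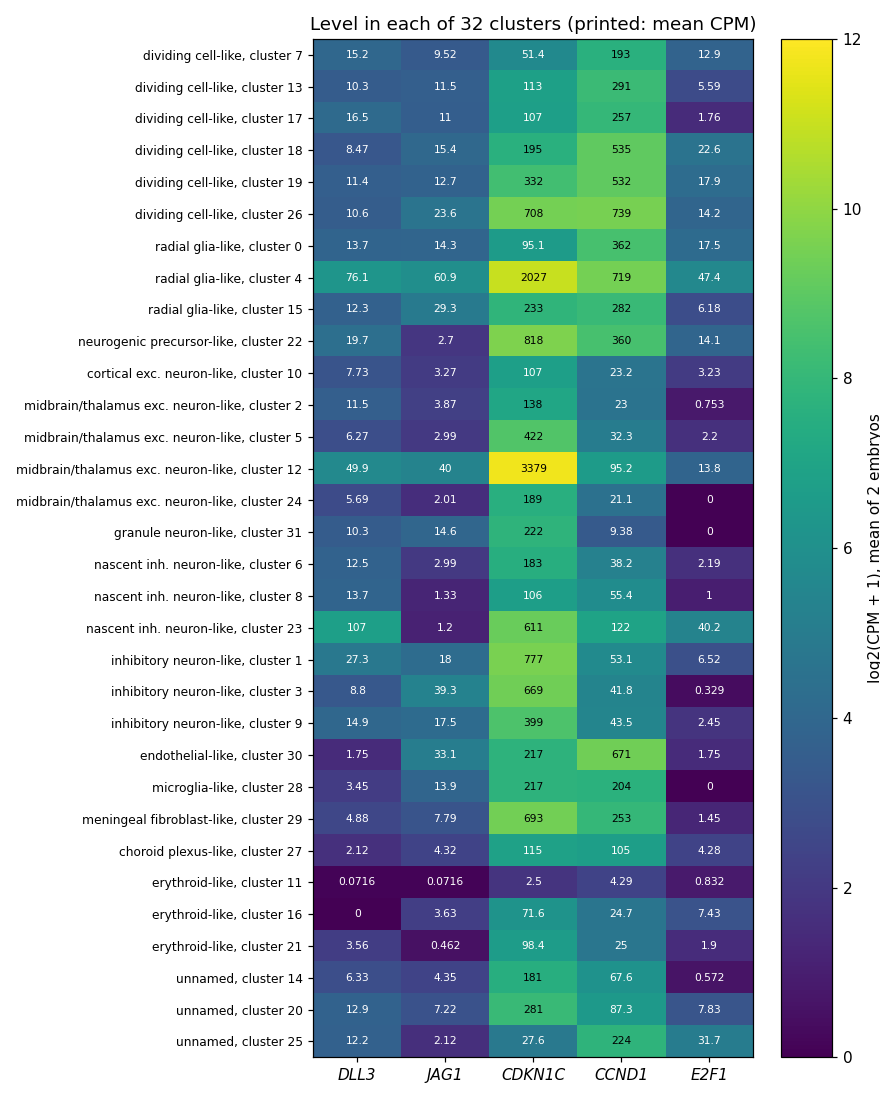
Mean CPM of the 2 embryos for each gene (columns) in each of the 32 clusters (rows, grouped by class), with colour on the log2(CPM + 1) scale. Cluster 4 has the highest JAG1 and E2F1, cluster 12 the highest CDKN1C, cluster 23 the highest DLL3 and cluster 26 the highest CCND1.

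All 5 genes were at a high level in cluster 4. The members were chosen with earlier results of these data known, so their joint level is a description and no independent finding. It holds 1036 cells and was named from 4 radial glia markers, SOX9, VIM, NES and PTN, where clusters 0 and 15 carry 10 each. PAX6, GLI3, FABP7 and SLC1A3 did not meet the marker limits in cluster 4, so its name is less firm. Its leading genes include DBX1, a homeobox factor of progenitors, besides E2F1, CDKN1C and JAG1 themselves. CDKN1C was at 1961 and 2093 CPM in embryos 1 and 2, JAG1 at 54.4 and 67.4 CPM, E2F1 at 43.6 and 51.2 CPM and CCND1 at 661 and 776 CPM. DLL3 was at 53.9 and 98.3 CPM and varied most between the embryos. JAG1 at 60.9 ± 9.18 CPM and E2F1 at 47.4 ± 5.38 CPM were the highest of the 32 clusters. A high level of the G1 cyclin and of the kinase inhibitor thus occurred in the same cluster, at 719 ± 81.2 CPM and 2027 ± 93.0 CPM. Of its cells, 2.32% were among the highest Scrublet doublet scores.

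Cluster 12 had the highest CDKN1C. These 540 cells carry the midbrain or thalamus excitatory neuron markers SLC17A6, EBF3 and SHOX2, and had CDKN1C at 3521 and 3238 CPM. The other clusters of that class, 2, 5 and 24, were at 138, 422 and 189 CPM on average, and cluster 12 gave 73.9% of the CDKN1C UMIs of the class from 18.5% of its cells. DLL3 (43.0 and 56.8 CPM) and JAG1 (41.7 and 38.2 CPM) were also high in it, whereas CCND1 was at 93.9 and 96.6 CPM, below the mean of each of the 6 dividing cell-like clusters.

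Cluster 23 had the highest DLL3 and a single JAG1 UMI. It holds 274 nascent inhibitory neuron-like cells led by VAX1, DLX1, NKX2-1 and DLL3, the first 3 being homeobox factors of the ventral forebrain. DLL3 was at 98.7 and 115.7 CPM, against 12.5 and 13.7 CPM on average in the other nascent inhibitory neuron-like clusters, 6 and 8, and none of the other clusters reached 98.7 CPM in either embryo, the nearest being cluster 4 at 98.3 CPM in embryo 2. E2F1 was at 38.5 and 41.9 CPM in it and CCND1 at 123 and 122 CPM, both above the other clusters of the class. JAG1 had 1 UMI in both embryos together.

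JAG1 was otherwise high in inhibitory neuron-like cells of another kind. In cluster 3, which carries GAD1, GAD2, GATA3 and OTX2, it was at 46.4 and 32.2 CPM, and in clusters 1 and 9 at 18.0 and 17.5 CPM on average. The nascent inhibitory neuron-like class was at 1.49 and 2.46 CPM, beside 3.34 and 2.06 CPM in the precursor-like class. Between the means of the inhibitory and the excitatory neuron-like classes JAG1 did not pass the test (-0.06 ± 0.362 on the log2 scale, edgeR adjusted p = 0.984). DLL3 (1.21 ± 0.298, adjusted p = 0.00114), CDKN1C (0.60 ± 0.0938, adjusted p = 8.79e-08) and CCND1 (1.43 ± 0.277, adjusted p = 1.8e-05) were higher in the inhibitory classes, in a comparison that called 15.5% of all genes. E2F1 missed the threshold (adjusted p = 0.156). The CDKN1C value was 0.28 in embryo 2 alone and 0.91 in embryo 1 alone, and 0.29 without granule neuron-like cells, and that of CCND1 was 0.73 without granule neuron-like cells and 0.29 (adjusted p = 0.033) in cells with at least 1000 genes. The DLL3 value was 0.74 in embryo 2 alone and 3.65 in embryo 1 alone, where granule neuron-like cells had no DLL3 UMI, and its call was at an adjusted p of 0.0502 with DESeq2.

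Among the 6 dividing cell-like clusters, the means of CCND1 and CDKN1C were both higher in clusters 26, 18 and 19. CCND1 was at 739, 535 and 532 CPM on average in clusters 26, 18 and 19, and at 193, 291 and 257 CPM in clusters 7, 13 and 17. CDKN1C was at 708, 195 and 332 CPM in the first 3 and at 51.4, 113 and 107 CPM in the other 3. E2F1 was at 1.76 and 5.59 CPM in clusters 17 and 13, against 12.9 to 22.6 CPM in the other dividing cell-like clusters. Mitotic genes lead clusters 17 and 13 (NEK2, BUB1 and UBE2C) but also cluster 19 (CENPF, CENPE and PLK1), where E2F1 was at 17.9 CPM. It reached 31.7 CPM in cluster 25, which is led by genes of DNA synthesis such as MCM3, MCM5 and CDC45. That cluster also carries radial glia markers and stayed unnamed, so its cells are outside the dividing cell-like class.

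Within the dividing cell-like class, cells with more UMIs from a list of S phase genes than from a list of G2/M genes were compared with the reverse. The first group held 43 and 33 cells of embryos 1 and 2 and the second 1516 and 1214. The second group is wider than G2/M, as it holds most cells of clusters 7 and 18, which are led by histone genes. CCND1 was at 570 and 533 CPM in the first against 325 and 362 CPM in the second, a difference of 0.64 ± 0.156 on the log2 scale (edgeR, adjusted p = 0.00277) that missed the threshold with DESeq2 and without the embryo as a block (adjusted p = 0.106 in each). CDKN1C was at 87.3 and 77.8 CPM against 157 and 179 CPM (-1.07 ± 0.306, adjusted p = 0.016; adjusted p = 0.0506 with RLE size factors). E2F1, DLL3 and JAG1 had 8 UMIs or fewer each in the first group and did not pass the test. In this comparison 5.94% of 8879 genes were called.

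Dividing cells, precursors and neurons were also compared without clusters, by gates on marker UMIs. Each of 13801 cells was thinned to 2000 UMIs and placed by the number of marker genes found: 4661 cells in the dividing gate only, 78 in both the dividing and the precursor gate, 96 in the precursor gate only, 2864 in the neuron gate and 2019 in the radial glia gate. The gates cross the classes. The precursor gate, for example, drew 21.9% of its cells from the precursor-like class and 28.1% from the radial glia-like class.

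**Figure D4:**
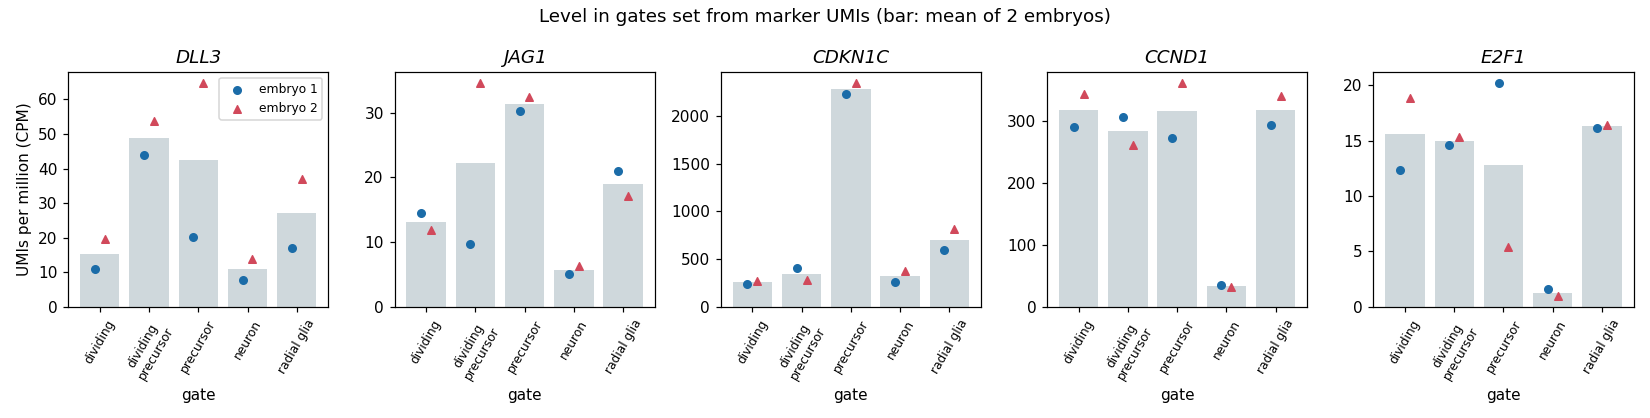
Level in CPM (vertical axis, from 0) of each gene in 5 gates, with bars for the mean and points for the embryos. DLL3 was higher in dividing precursors than in other dividing cells in both embryos, and CDKN1C was at 2287 CPM in precursors outside the dividing gate.

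DLL3 rose from dividing cells to dividing precursors. It was at 11.0 and 19.5 CPM in the dividing gate and at 43.8 and 53.8 CPM in the 78 cells of both gates, from 9 and 14 UMIs. The log2 fold change was 1.54 ± 0.377 (edgeR, adjusted p = 0.017), where 0.673% of 9801 genes were called, and the call was lost without the embryo as a block (adjusted p = 0.625). CDKN1C (0.28 ± 0.143, adjusted p = 0.642), CCND1 (-0.29 ± 0.133), JAG1 and E2F1 did not pass the test.

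CDKN1C rose at the next step. It was at 409 and 276 CPM in dividing precursors and at 2227 and 2347 CPM in precursors outside the dividing gate (2.74 ± 0.134, edgeR adjusted p = 4.1e-37). The other 4 genes did not pass the test, CCND1 at 284 ± 32.4 CPM before and 317 ± 62.8 CPM after, and 4.93% of all genes were called. DLL3 was at 20.2 and 64.7 CPM in the 2 embryos after this step, and the difference was not called. CDKN1C was at 818 CPM in the precursor-like class, which gave only 21.9% of the cells of the precursor gate. Radial glia-like cells gave 28.1%, and midbrain or thalamus excitatory and inhibitory neuron-like cells 14.6% each. Of the cells in both gates, 67.9% were dividing cell-like. The part of these kinds of cell in the CDKN1C difference was not tested.

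All 5 genes fell from the precursor gate to the neuron gate, in a comparison that called 2.87% of all genes lower. CCND1 fell to 33.9 ± 2.06 CPM (-3.19 ± 0.186, adjusted p = 3.63e-30) and CDKN1C to 318 ± 78.9 CPM (-2.82 ± 0.094, adjusted p = 5.47e-52). DLL3 fell to 10.9 ± 4.35 CPM (-1.89 ± 0.47, adjusted p = 0.00258), JAG1 to 5.68 ± 0.787 CPM (-2.39 ± 0.591, adjusted p = 0.0025) and E2F1 to 1.27 ± 0.406 CPM (-3.36 ± 1.00, adjusted p = 0.0174, edgeR). The E2F1 level of the precursor gate rests on 4 and 1 UMIs, and the difference was -2.36 and -3.75 in the embryos alone. The DLL3 call did not hold without the block (adjusted p = 0.136). JAG1 was at 31.3 CPM in the precursor gate against 2.70 CPM in the precursor-like class, and 21.9% of the cells of the gate belong to that class.

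Radial glia-gated cells were above dividing-gated cells in CDKN1C (593 and 811 against 235 and 274 CPM, log2 fold change 1.50 ± 0.0743, adjusted p = 1.81e-37), DLL3 (0.85 ± 0.15, adjusted p = 1.57e-06) and JAG1 (0.58 ± 0.178, adjusted p = 0.00905). CCND1 (0.05 ± 0.0666) and E2F1 (0.12 ± 0.183) did not pass the test (adjusted p = 0.684 and 0.706, edgeR), and 24.6% of all genes were called. The JAG1 call was lost with DESeq2 (adjusted p = 0.295), and those of JAG1 and DLL3 without the block (adjusted p = 0.158 and 0.0804).

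DLL3 and CDKN1C occurred in the same cells of cluster 4. With every cell thinned to 1000 UMIs, a CDKN1C UMI was found in 23 of 27 cells with a DLL3 UMI in embryo 1 (85.2%, exact 95% interval 66.3 to 95.8%) and in 44 of 53 in embryo 2 (83.0%, 70.2 to 91.9%). Cells of the cluster with no DLL3 UMI had 45.4% (40.6 to 50.1%) and 44.7% (40.2 to 49.3%). In cluster 12 all 12 and 17 cells with a DLL3 UMI had CDKN1C, against 70.2% and 69.7% of the others. In cluster 23, where DLL3 was highest, the shares were 30.0% (6.67 to 65.2%) and 19.0% (5.45 to 41.9%) with DLL3 and 19.4% and 20.0% without, within each other's intervals. JAG1 went with CDKN1C in cluster 4 as well, with 66.7% and 78.6% against 46.8% and 46.8%, and the intervals overlapped in embryo 1. Of the 27 and 53 DLL3 cells, 2 and 4 also had a JAG1 UMI. Over the whole radial glia-like class, 72.7% and 71.6% of cells with DLL3 had CDKN1C, against 21.1% and 22.5% without. The dividing cell-like class differed between embryos, with 3 of 19 cells in embryo 1 and 0 of 19 in embryo 2, against 8.47% and 9.27% without DLL3. The precursor-like class had only 2 and 3 cells with a DLL3 UMI. These shares describe the cells of 2 libraries and carry no test, and the intervals cover counting error only.

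**Figure D5:**
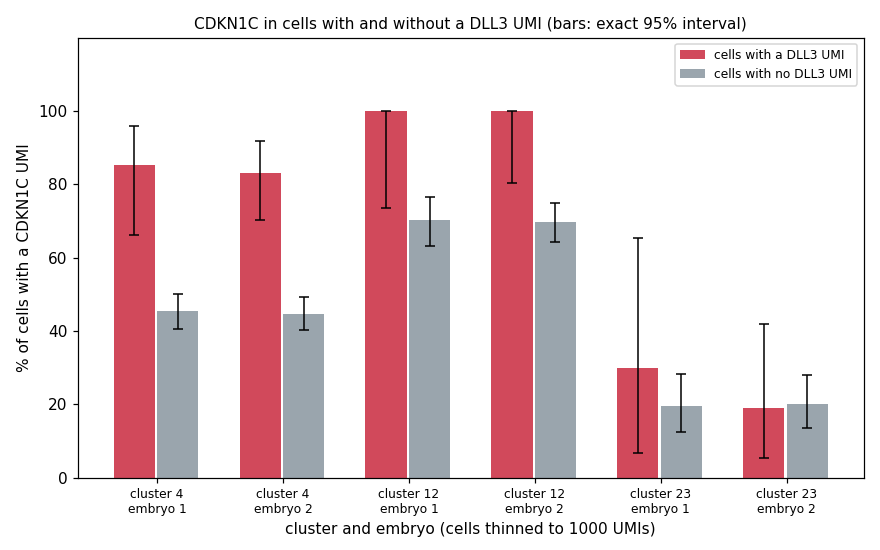
Share of cells with a CDKN1C UMI (vertical axis, percent) among cells with and without a DLL3 UMI, in clusters 4, 12 and 23 of each embryo, at 1000 UMIs per cell, with exact 95% intervals. In cluster 4 the shares with DLL3 were 85.2% and 83.0% against 45.4% and 44.7% without.

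Outside the neural classes, JAG1 and CCND1 were high in endothelial-like cells, where DLL3 and E2F1 had 1 UMI each. These cells form 1 cluster that carries 8 endothelial markers, among them PECAM1, CDH5 and KDR, and also the mural cell markers RGS5, PDGFRB, KCNJ8, ABCC9, NOTCH3 and MCAM and the meningeal fibroblast markers COL1A1, COL1A2, COL3A1 and FOXC1. The part of these other cells in the values was not tested. In the 43 cells of each embryo CCND1 was at 581 and 761 CPM, the highest mean of all classes, and JAG1 at 31.0 and 35.1 CPM. The JAG1 values rest on 17 UMIs, and radial glia-like cells had a like level, 34.6 ± 2.20 CPM. Against the mean of the neural classes CCND1 was higher by 3.19 ± 0.151 and JAG1 by 2.05 ± 0.48 on the log2 scale (edgeR, adjusted p = 1.39e-45 and 0.000219). CDKN1C (-0.71 ± 0.167, adjusted p = 0.000221) and DLL3 (adjusted p = 0.0169) were lower. The DLL3 UMI comes to 0.0945 times the level of the summed neural classes (exact 95% counting interval 0.00239 to 0.528), and that of E2F1 to 0.173 times (0.00438 to 0.968). The CDKN1C and DLL3 calls were lost with DESeq2 (adjusted p = 0.11 and 0.128) and without the highest doublet scores (adjusted p = 0.101 and 0.0538). This comparison called 30.3% of all genes. CDKN1C was at 693 ± 35.0 CPM in meningeal fibroblast-like cells. In microglia-like cells E2F1 had no UMI and CCND1 was at 204 ± 43.9 CPM. Erythroid-like cells held 0.78 CPM of DLL3 and 27.9 CPM of CDKN1C, with 87.5% of these DLL3 UMIs and 76.2% of these CDKN1C UMIs in cluster 21.

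The genes around the Notch ligands moved unevenly from dividing cell-like to precursor-like cells, in a comparison that called 21.1% of all genes. Of 6 ligand genes tested, DLL1 (2.69 to 9.96 CPM, 1.87 ± 0.645, edgeR adjusted p = 0.0238) and DLL4 (2.71 ± 0.846, adjusted p = 0.0104) rose, DLK1 (47.6 to 23.6 CPM, adjusted p = 0.00639) and JAG1 fell, and DLL3 and JAG2 did not pass. DLL4 is a name borne by 7 gene models, whose UMIs were summed, and it had 8 UMIs in precursor-like cells. Of the 4 receptors none was called, with NOTCH1 at 22.9 and 19.5 CPM on average and NOTCH2 at 8.74 and 3.92 CPM. RBPJ, the DNA-binding partner of activated Notch, was at 118 and 136 CPM and did not pass, nor did the sheddase ADAM10.

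Of 13 genes of ligand processing, receptor glycosylation and signalling, 2 rose and 1 fell, a share near the 21.1% of all genes called. MIB1, a ubiquitin ligase that lets ligands signal, rose by 1.06 ± 0.242 (edgeR, adjusted p = 0.00025) and NUMBL, a homologue of the Notch antagonist NUMB, by 2.27 ± 0.476 (adjusted p = 5.4e-05). LFNG, a glycosyltransferase of Notch receptors, went from 52.2 to 11.8 CPM (-2.15 ± 0.352, adjusted p = 1.64e-07). Of 5 Notch targets tested, 3 fell and none rose, where 1365 of 9894 genes fell. In the gates none of the 5 was called between dividing cells, dividing precursors and precursors. HES4 went from 62.7 to 4.56 CPM (-3.76 ± 0.427, adjusted p = 9.91e-14). HES1 had 198 UMIs in dividing cell-like cells and 0 in precursor-like cells, so it was at least 4.51-fold lower, with the limit set at 3 counts over both embryos. HES5 had 1 UMI in precursor-like cells, a ratio of 0.116 (0.00292 to 0.66). The median log2 fold changes of the tested ligands and targets were 0.55 and -3.05.

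From precursor-like to neuron-like cells, 3 of 6 ligands fell (DLL1, DLL4 and DLK1), as did NOTCH1 among 4 receptors (-3.70 ± 0.671, edgeR adjusted p = 2.87e-06) and 4 of 13 processing genes (LFNG, MFNG, MIB1 and RBPJ), and none of these rose. Of all 9894 genes, 955 fell. None of 5 Notch targets was called. In radial glia-like against dividing cell-like cells 4 of 6 ligands rose (DLL1, DLL3, JAG1 and DLK1) and 1 of 5 targets, HES5 (0.78 ± 0.215, edgeR adjusted p = 0.0023), where 1417 of 9894 genes rose. The DLL3 and JAG1 calls there rest largely on cluster 4 and did not hold when only cells with at least 1000 genes were clustered. In endothelial-like cells DLL4 was at 44.9 ± 25.8 CPM, LFNG at 57.3 ± 6.71 CPM and NOTCH3, one of the mural cell markers, at 25.6 ± 1.46 CPM, and 4 of 5 targets, 3 of 4 receptors and 3 of 6 ligands were above the neural mean, where 1640 of 9894 genes were.

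CDKN1B (p27), the other kinase inhibitor that could be tested between classes, fell where CDKN1C rose, from 48.0 ± 1.90 CPM in dividing cell-like cells to 18.1 ± 5.17 CPM in precursor-like cells (-1.39 ± 0.324, edgeR adjusted p = 0.000331). It was at 66.9 CPM in inhibitory neuron-like cells. CDKN2A and CDKN2D were not analysed here, and 3 others had too few UMIs to be tested between classes. Of these CDKN2C was tested in the gates, where it was called lower in radial glia-gated than in dividing-gated cells (adjusted p = 0.000618). CCND2, the second D cyclin, was at 640 ± 70.9 CPM in dividing cell-like and 638 ± 29.7 CPM in precursor-like cells and lower in neuron-like cells (-2.52 ± 0.102, adjusted p = 1.04e-52). It was at 450 ± 24.4 CPM in nascent inhibitory neuron-like cells, where CCND1 was at 60.3 CPM, and at 228 ± 9.35 CPM in endothelial-like cells, where CCND1 was at 671 CPM. Of 7 G1 cyclins and kinases, only CCNE2 fell from dividing to precursor-like cells (2 UMIs, ratio 0.184, 0.0221 to 0.677), where 1365 of 9894 genes fell. From precursor-like to neuron-like cells CCND1, CCND2, CDK4 and CDK6 fell, where 955 of 9894 genes did.

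Of 9 RB and E2F genes, 5 fell from dividing cell-like to precursor-like cells and none rose, where 1365 of 9894 genes fell. The repressors E2F7 and E2F8 went from 28.1 and 50.4 CPM to 1 UMI each, ratios of 0.033 (0.000833 to 0.185) and 0.0183 (0.000462 to 0.102). E2F5 (-0.76 ± 0.174, edgeR adjusted p = 0.000242), RBL1 and E2F3 (2 UMIs, ratio 0.183, 0.022 to 0.672) fell as well, whereas E2F1 did not pass and RB1 was at 50.0 and 33.9 CPM. In radial glia-like against dividing cell-like cells E2F7 and E2F8 were also lower, at 3.49 and 4.40 CPM, where E2F1 was higher.

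Over the 32 clusters, each member was compared with 8180 genes by the Pearson correlation of log2(CPM + 1), given as a description, since the clusters share 2 libraries. DLL3 was most like SETBP1 (r = 0.876), followed by CCNJ, FBXW7, ZBTB20 and TCF12 (0.816 to 0.827). JAG1 was most like ZNF800 (r = 0.761), then PAX3, MYO6, FAT1 and evm.model.chr16.514. CDKN1C was most like PSME4 (r = 0.805), then TP53I11, SHD, CORO1C and TSTD1. CCND1 followed the radial glia gene VIM (r = 0.911), then TP53I13, MYO10, EF1D and LRP5. E2F1 was most like SLC16A11 (r = 0.742), then POLE2, CCND2, NOTCH1 and TEAD2. Between members, r ran from 0.202 for JAG1 and E2F1 to 0.621 for DLL3 and CDKN1C.

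DLL3 varied most between the embryos. Over all cells it was at 10.6 CPM in embryo 1 and 21.9 CPM in embryo 2, and of the 31 clusters with a DLL3 UMI it was higher in embryo 2 in 27. JAG1 was at 11.8 and 13.0 CPM, CDKN1C at 332 and 482 CPM, CCND1 at 171 and 197 CPM and E2F1 at 8.12 and 10.7 CPM. CDKN1C was higher in embryo 2 in 14 of 32 clusters, JAG1 in 11, CCND1 in 18 and E2F1 in 17 of the 29 with a UMI. Embryo 2 nevertheless had the higher level of each over all cells. The levels over all cells include erythroid-like cells, which held about 9805690 UMIs in embryo 1 and 3459980 in embryo 2, so they do not compare the embryos at a like mix of cells. With 1 library per embryo, the animal and the library cannot be told apart.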

How the data were processed

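The authors checked read quality with fastp, ran Cell Ranger 3.1.0 against the TS_2.0 tree shrew assembly and deposited raw UMI counts per gene model and barcode, with no normalization. Models that share a name were summed. Barcodes with at least 200 genes were kept, scaled to 10000 UMIs and log-transformed. The 2000 most variable genes without the 5 members and their related genes, 20 principal components and 20 neighbours entered Leiden clustering (leidenalg 0.10.2, scanpy 1.11.5) at resolution 2.0, the first of 0.5, 1.0 and 2.0 that gave a precursor-like cluster. A cluster was named from at least 3 markers, each found in 10% of its cells and 2 times higher than elsewhere. Scrublet's own threshold called 0 and 1 cells, so doublets were kept, and the highest scores (566 and 696 cells) were left out as an alternative.

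UMI counts were summed per embryo and class and tested with edgeR 4.0.16 (R 4.3.3; TMM, filterByExpr, quasi-likelihood, embryo as a block because each class comes from the same animals, Benjamini-Hochberg over all genes tested, threshold 0.05). All classes in a fit share the estimate of the residual spread (common coefficient of variation 0.0637). On simulated data with 200 genes changed 4-fold, 94.5% were recovered for precursor-like against dividing cell-like cells (9264 genes, 2.58% of calls false) and 96% for neuron-like against precursor-like cells (9287 genes, 5.88% false). All classes were simulated from the same mean profile, with the same spread for every gene and no difference between embryos. Genes with low expected counts were not changed, so these shares do not cover them. Total counts were 38192755 and 35785697 UMIs in the cells, and the exact intervals cover counting error only.

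Besides the members, the text names from each related list the 2 genes of highest mean level and the 2 called genes of largest change per comparison, and the 5 genes most like each member. Others, and clusters singled out, were chosen after their values were seen. The members and lists were chosen with earlier results of these data known. Alternatives were at least 1000 genes, resolution 1.0, 30 components, doublet scores, haemoglobin cells left out, RLE size factors, library totals, no gene filter, no block, DESeq2 1.42.0, gates at other settings, means over cells, each embryo left out, and, added later, the granule neuron-like class left out. Sequences were not printed, and other data of the study were not analysed here.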

Additional observations from a re-analysis of the deposited data

Results flagged for a closer look

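The barcodes with under 200 genes, which entered no comparison, held UMIs of CDKN1C and CCND1 above the limit that a count of 0 allows. CDKN1C was at 8.71 CPM in those of embryo 1 and at 4.80 CPM in those of embryo 2, and CCND1 at 10.6 CPM in those of embryo 1, where the limits are 0.816 and 1.31 CPM. Haemoglobin genes made up 92.7% and 94.4% of the UMIs of these barcodes. DLL3, JAG1 and E2F1 had 2 UMIs or fewer in them per embryo.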

How the results depend on the processing

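Of the 35 differences of the members that were called, 35 kept their direction in each embryo alone, and 19 kept direction and call under every other alternative that gave a value. With 1 embryo left out there is no residual degree of freedom, so those values carry no test, and the cause of the changes given here was not tested. At least 1000 genes per cell and resolution 1.0 gave no precursor-like class, so comparisons with it have no value there. With embryo 1 or embryo 2 left out, precursor-like minus dividing cell-like log2 differences ran from -0.043 to 0.20 for CCND1, 2.21 to 2.47 for CDKN1C, 0.58 to 0.73 for DLL3, -0.87 to 1.04 for E2F1 and -2.33 to -1.93 for JAG1. Neuron-like minus precursor-like differences ran from -3.88 to -3.82 for CCND1, -1.73 to -1.62 for CDKN1C, -2.02 to -0.54 for DLL3, -3.50 to -2.49 for E2F1 and 0.75 to 1.63 for JAG1. Uncalled values that changed sign ran from -1.29 to 0.047 (DLL3, neuron-like minus dividing cell-like), -0.13 to 0.19 (CDKN1C, precursor-like minus radial glia-like), -0.37 to 0.12 (JAG1, inhibitory minus excitatory) and -1.10 to 0.94 (DLL3, S list minus G2/M list). In the gates they ran from -0.034 to 0.63 (CDKN1C), -0.34 to 0.071 (E2F1) and -0.74 to 1.50 (JAG1) for dividing precursors minus dividing cells, from -0.18 to 0.24 (CCND1), -1.12 to 0.035 (DLL3), -1.74 to 0.46 (E2F1) and -0.33 to 1.63 (JAG1) for the next step, and from -0.067 to -0.010 (CCND1) and -0.25 to 0.36 (E2F1) for radial glia minus dividing cells.

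With 30 components, precursor-like minus dividing cell-like differences were -0.48 (DLL3), -0.45 (E2F1) and -0.82 (JAG1, call lost). JAG1 was at -0.046 in neuron-like minus precursor-like cells, DLL3 at -0.71 in radial glia-like minus dividing cell-like cells, CDKN1C and DLL3 at 1.20 and 0.23 in precursor-like minus radial glia-like cells, and E2F1 and JAG1 at -0.00014 and 0.57 in inhibitory minus excitatory neuron-like cells. With the highest Scrublet scores left out the values were -0.64 (DLL3) and -0.38 (E2F1) for precursor-like minus dividing cell-like cells, 0.49 (DLL3) for neuron-like minus precursor-like cells, 1.00 (CDKN1C) for precursor-like minus radial glia-like cells and 0.99 (JAG1, adjusted p = 0.0477 in edgeR) for inhibitory minus excitatory cells. With at least 1000 genes, radial glia-like minus dividing cell-like differences were -0.52 (CCND1), -1.43 (CDKN1C), -3.75 (DLL3) and -1.14 (E2F1), DLL3 was at 0.0023 in neuron-like minus dividing cell-like cells and JAG1 at 0.80 in inhibitory minus excitatory cells. DLL3 in neuron-like minus dividing cell-like cells was also at 0.18 with library totals, 0.067 at resolution 1.0 and 0.19 without granule neuron-like cells, an alternative chosen after the data were seen. JAG1 in inhibitory minus excitatory cells was at 0.68 at resolution 1.0 and 0.22 without granule neuron-like cells. CDKN1C in precursor-like minus radial glia-like cells was at 0.032 with RLE size factors, 0.024 with DESeq2, 0.0086 with no gene filter and 0.012 without haemoglobin cells. CCND1 in radial glia-gated minus dividing-gated cells was at -0.067 with no gene filter and -0.078 with 3 genes per gate. JAG1 in precursor-like minus dividing cell-like cells was at -2.07 with DESeq2 (call lost). Other size factors moved the median difference of DLL3, JAG1, CDKN1C and CCND1 by 0.30 on the log2 scale (RLE, endothelial-like), 0.22 and 0.21 (library totals, neuron-like minus dividing cell-like and minus precursor-like), -0.17 and -0.16 (RLE, neuron gate and inhibitory), 0.13 (RLE, S list minus G2/M list) and 0.11 (library totals, dividing precursor gate).

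The number of genes called moved by over 1.5 times in 12 of 96 refits. Without the replicate block, it was 1248 for radial glia-like minus dividing cell-like cells (2678 with it), 889 for precursor-like minus radial glia-like cells (1344), 9 for dividing precursors minus dividing cells (66), 508 for neuron minus precursor gates (849) and 1036 for radial glia minus dividing gates (2409). With DESeq2 it was 25 for dividing precursors and 1189 for radial glia gates. With at least 1000 genes it was 1621 for radial glia-like minus dividing cell-like cells. For inhibitory minus excitatory cells (1536) it was 2590 with 30 components, 2317 with at least 1000 genes, 2461 without the highest Scrublet scores and 2585 without granule neuron-like cells. Depth limits E2F1, DLL3 and JAG1 most, since they had 16, 21 and 3 UMIs in precursor-like cells. The split of called genes into higher and lower also moved with the size factors. With RLE it went from 426 and 918 to 545 and 738 (precursor-like minus radial glia-like), 1640 and 1357 to 2020 and 827 (endothelial-like), 1146 and 390 to 511 and 678 (inhibitory minus excitatory), 22 and 44 to 34 and 30 (dividing precursor gate), 568 and 281 to 320 and 391 (neuron minus precursor gates) and 209 and 318 to 303 and 244 (S list minus G2/M list). With library totals it went from 970 and 955 to 1509 and 655 (neuron-like minus precursor-like), 2081 and 2951 to 2794 and 2192 (neuron-like minus dividing cell-like), to 718 and 502 for inhibitory minus excitatory cells and to 49 and 32 for the dividing precursor gate.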
